A study of Mus musculus with 48 samples.

Results

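C2C12 mouse myoblasts that had spent 0.5 h in differentiation medium were compared with the same cells at 0 h, still in growth medium. The members were the 3 arrays labelled 0.5hr_differentiation and the 3 labelled 0hr_ctrl, 6 of the 48 arrays in the series, chosen by their time label alone. C2C12 is an established line of mouse myoblasts. At 0 h the cultures had not yet been switched to differentiation medium and grew in DMEM with 20% fetal bovine serum. At 0.5 h they had been switched to DMEM with 2% horse serum, the change used to start differentiation into myotubes. Both groups were the untreated line, with no transgene and no cycloheximide. The comparison therefore covers the switch of medium, in the amount and the species of serum, together with the first 0.5 h after it, and these cannot be told apart.

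The study followed C2C12 cells at 14 times, 24 h before the switch, at the switch and at 12 later times up to 144 h. It added 2 groups pre-treated with 50 µM cycloheximide, an inhibitor of protein synthesis. Each of the 16 groups had 3 arrays, hybridised with RNA from successive passages of the cells. At 0.5 h and 0 h, the only groups checked for this, arrays of the same replicate number deviated together. Levels below are log2 values from robust multi-array averaging (RMA), a normalization of Affymetrix probe intensities, so a difference of 1 is a 2-fold change.

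Immediate early genes are transcribed within minutes of a stimulus such as fresh serum, without new protein synthesis. They encode transcription factors such as Fos and Egr1, secreted matrix proteins such as Ccn1, and inhibitors that end the signal, such as the MAP kinase phosphatase Dusp1 and the mRNA-destabilising protein Zfp36. Their mRNAs are short lived. In myoblasts, lowering the serum leads over days to exit from the cell cycle, to myogenin expression and to fusion, while changing the medium also exposes the cells to fresh serum and to handling.

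The 6 arrays had median levels between 4.004 and 4.050 over all probe sets. The correlation between 2 arrays was 0.993 to 0.994 within 0.5 h, 0.991 to 0.995 within 0 h and 0.986 to 0.997 between the groups, so no array stood apart, and a pair of arrays from different groups could be as alike as a pair from the same group. The 8 myoblast markers had a mean level of 8.93 to 9.13 in the 0.5 h arrays and 8.94 to 9.15 in the 0 h arrays, and 7 of the 8 were above 6 (all but Msc). All 5 adipocyte, all 5 endothelial and all 5 leukocyte markers stayed below 6. Of the bone and cartilage markers 4 of 5 were below 6, with summary levels of 4.28 to 4.47 at 0.5 h and 4.35 to 4.40 at 0 h. Of the smooth muscle markers 3 of 6 were below 6, with 6.33 to 6.68 at 0.5 h and 6.30 to 6.67 at 0 h. In a bulk culture, fewer cells expressing a gene and less RNA per cell cannot be told apart.

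At 0.5 h, 7 of 18193 genes had risen relative to 0 h and none had fallen (0.0385% of genes risen and 0.0% fallen, limma, adjusted p under 0.05). All 7 were immediate early genes: the transcription factors Fos, Egr1 and Nr4a1, the nuclear protein Ier2, the secreted matrix protein Ccn1, the phosphatase Dusp1 and the mRNA-destabilising protein Zfp36. Fos rose 7.23-fold, Nr4a1 3.39-fold, Ccn1 3.12-fold, Zfp36, Ier2 and Dusp1 2.58-fold each, and Egr1 1.77-fold. With the replicate number as a block, an eighth gene, Gadd45g, was called (8 genes, 0.044%). With the block on only the 6 arrays, 34 of the 18193 genes were called, these 8 among them, 15 risen and 19 fallen. At an unadjusted p under 0.05 there were 318 higher genes (1.75%) and 174 lower genes (0.956%), and the median difference over all genes was 0.02. By size alone, 7 genes were at least 2-fold higher (0.0385%), the called genes other than Egr1 and in addition Ccn2, and 1 gene, Neat1, was at least 2-fold lower (0.0055%).

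**Figure D1:**
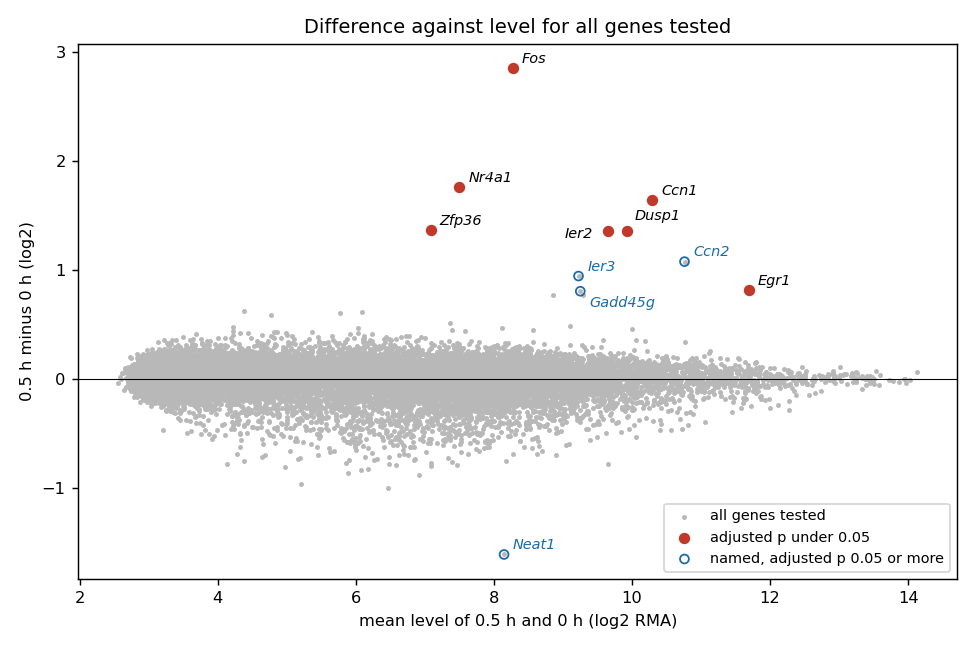
Each point is 1 of 18193 genes, with its mean level over both groups on the x axis (log2 RMA) and the difference 0.5 h minus 0 h on the y axis (log2). The 7 genes called are red and lie between 0.82 and 2.85, and the open blue circles mark Ccn2, Ier3, Gadd45g and Neat1, which were not called in the fit plotted (all 48 arrays, no replicate block).

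The 250 bases before the annotated start are shown for 5 of the 7 called genes, because these genes moved together. The windows are from the RefSeq promoter table (build GRCm38.p6), and none is shown for Egr1 and Ier2. Capitals mark TGACG on either strand, read as CGTCA on the other, and the CArG box, the motif that serum response factor binds. The longer TGACGTCA, the full cyclic AMP response element, contains TGACG.
Fos (chr12:85473640-85473889, plus strand): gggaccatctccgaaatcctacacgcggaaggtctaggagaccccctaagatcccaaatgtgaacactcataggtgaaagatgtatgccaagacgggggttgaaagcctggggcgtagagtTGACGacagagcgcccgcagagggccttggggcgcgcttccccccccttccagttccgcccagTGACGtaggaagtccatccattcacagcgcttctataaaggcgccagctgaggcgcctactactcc
Nr4a1 (chr15:101266596-101266845, plus strand): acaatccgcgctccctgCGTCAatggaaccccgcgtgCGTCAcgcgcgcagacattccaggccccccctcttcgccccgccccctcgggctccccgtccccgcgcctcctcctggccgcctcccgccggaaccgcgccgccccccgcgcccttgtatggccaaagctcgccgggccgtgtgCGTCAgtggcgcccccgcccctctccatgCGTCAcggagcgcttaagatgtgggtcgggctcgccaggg
Ccn1 (chr3:145649986-145650235, minus strand): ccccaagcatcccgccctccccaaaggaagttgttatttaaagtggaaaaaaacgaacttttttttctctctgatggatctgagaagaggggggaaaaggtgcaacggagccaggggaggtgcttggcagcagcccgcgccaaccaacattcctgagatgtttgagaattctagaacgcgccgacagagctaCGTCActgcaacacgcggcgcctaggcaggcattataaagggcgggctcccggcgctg
Dusp1 (chr17:26508473-26508722, minus strand): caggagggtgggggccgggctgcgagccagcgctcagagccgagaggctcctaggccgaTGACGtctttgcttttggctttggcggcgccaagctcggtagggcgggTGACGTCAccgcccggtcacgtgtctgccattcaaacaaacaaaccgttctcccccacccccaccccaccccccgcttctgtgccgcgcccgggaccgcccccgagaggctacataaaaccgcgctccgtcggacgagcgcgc
Zfp36 (chr7:28379229-28379478, minus strand): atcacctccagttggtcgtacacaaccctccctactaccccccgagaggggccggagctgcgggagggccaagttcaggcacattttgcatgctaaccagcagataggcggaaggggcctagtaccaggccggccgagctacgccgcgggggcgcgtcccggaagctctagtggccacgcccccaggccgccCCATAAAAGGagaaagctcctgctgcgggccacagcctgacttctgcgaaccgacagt

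TGACG was found in 4 of these 5 promoters and in 17.8% of all 32851 promoter windows of that length, searched on both strands. Fos held it at 129 and 66 bases before the start, Nr4a1 4 times, Ccn1 at 58 bases, and Dusp1 at 191 bases and within a TGACGTCA at 143 bases. TGACGTCA was found in Dusp1 only, against 1.55% of all promoters. A CArG box in its strict form, CCWWWWWWGG with W for A or T, was found in Zfp36 only, as CCATAAAAGG at 58 bases. It was in 1.47% of all promoters. Sites with a mismatch, or further upstream than the window, were not searched for. The motif GCGNGGGCG, which Egr factors bind, was in the windows of Zfp36 and Nr4a1 and in 4.7% of all, GGAATG in those of Ccn1 and Nr4a1 and in 12.6% of all, and TATAAA in those of Fos and Ccn1 and in 12.4% of all. These matches describe the letters of the window and not binding in these cells.

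Fos had the largest difference of all genes tested. Fos, the partner of Jun in the AP-1 factor, was at 9.88, 9.96 and 9.27 in the 3 arrays of 0.5 h, against 6.72, 6.82 and 6.998 in the 3 of 0 h. All 0.5 h arrays lay above all 0 h arrays, by more than 2 on the log2 scale. The difference was 2.85 (SE 0.29, adjusted p = 1.27e-07).

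Nr4a1, an orphan nuclear receptor, was at 8.48, 8.67 and 7.99 at 0.5 h, against 6.61, 6.83 and 6.41 at 0 h. The groups did not overlap, and replicate 2 was highest and replicate 3 lowest in both. It rose by 1.76 (SE 0.34, adjusted p = 0.0197), a call that was kept only without the third 0.5 h array when arrays were left out in turn (adjusted p up to 0.371). With the replicate block the call held without each array in turn (adjusted p 0.00472 to 0.0305).

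Egr1, a zinc finger factor, was at 12.03, 12.14 and 12.13 at 0.5 h, against 11.15, 11.26 and 11.44 at 0 h. The groups were separate with little spread at 0.5 h, and the rise was the smallest of the 7, at 0.82 (SE 0.15, adjusted p = 0.0128). It missed the threshold when arrays were centred on housekeeping genes (adjusted p = 0.154), when arrays were quantile normalized again (0.0512), with only the 6 arrays (0.0541), and without each array in turn except the third of 0 h (adjusted p up to 0.221). With the replicate block it passed with only the 6 arrays (adjusted p = 0.00569), and over all 48 arrays it was lost only without replicate 2 of 0.5 h (0.102) or replicate 1 of 0 h (0.120). Ier2, a nuclear protein of the early response, was at 10.50, 10.46 and 10.06 at 0.5 h, against 9.15, 9.03 and 8.75 at 0 h. The third replicate was lowest in both groups, and the differences within replicate numbers were 1.36, 1.43 and 1.32. The rise was 1.37 (SE 0.25, adjusted p = 0.0124), and it was lost on leaving out any one of 4 arrays, replicates 1 and 2 of 0.5 h and replicates 2 and 3 of 0 h (adjusted p up to 0.195), but not with the replicate block.

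Ccn1, a secreted matrix protein and target of serum response factor and YAP, was at 11.26, 10.96 and 11.11 at 0.5 h, against 9.68, 9.31 and 9.41 at 0 h. The groups were far apart, and the rise of 1.64 (SE 0.27, adjusted p = 0.0022) was called without each array in turn (adjusted p up to 0.0457). With probe sets that may match other transcripts left out, another probe set stood for Ccn1 and its difference of 1.82 missed the threshold (adjusted p = 0.0603). Ccn2, its relative and a connective tissue growth factor, was at 11.32, 11.35 and 11.21 at 0.5 h, against 10.27, 10.27 and 10.11 at 0 h. These arrays did not overlap and the spread within each group was under 0.1, but the difference of 1.08 was not called (SE 0.24, adjusted p = 0.112). It passed with only the 6 arrays (adjusted p = 0.00868, or 0.000459 with the replicate block), and over all 48 arrays the block gave 0.0699.

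Dusp1, which dephosphorylates MAP kinases, was at 10.58, 10.74 and 10.52 at 0.5 h, against 9.41, 9.08 and 9.25 at 0 h. The groups did not overlap, and the rise of 1.37 (SE 0.20, adjusted p = 0.000498) was called without each array in turn (adjusted p up to 0.0173). Zfp36, which binds AU-rich elements and speeds the decay of mRNAs, was at 7.81, 8.10 and 7.40 at 0.5 h, against 6.33, 6.38 and 6.49 at 0 h. Its lowest 0.5 h array still lay above every 0 h array, and it rose by 1.37 (SE 0.22, adjusted p = 0.00148). Without the second 0.5 h array the adjusted p was 0.058, or 0.0108 with the replicate block, under which the call held without each array in turn.

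Gadd45g, a stress protein that binds MAP kinase kinase kinases and cell cycle regulators, was at 9.92, 9.73 and 9.31 at 0.5 h, against 9.02, 8.67 and 8.85 at 0 h. The groups did not overlap, and the difference was 0.81 (SE 0.21). Its adjusted p was 0.744 without the replicate block and 0.000324 with it (SE 0.12), and with the block it was called without each array in turn. Ier3, an early response protein linked to cell survival, was at 9.76, 9.73 and 9.61 at 0.5 h, against 8.73, 8.78 and 8.75 at 0 h. Its groups were as cleanly separate, but the difference of 0.95 was not called (SE 0.23, adjusted p = 0.245), and passed with only the 6 arrays (adjusted p = 0.0122, or 0.00162 with the replicate block). Over all 48 arrays the block gave 0.0699.

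**Figure D2:**
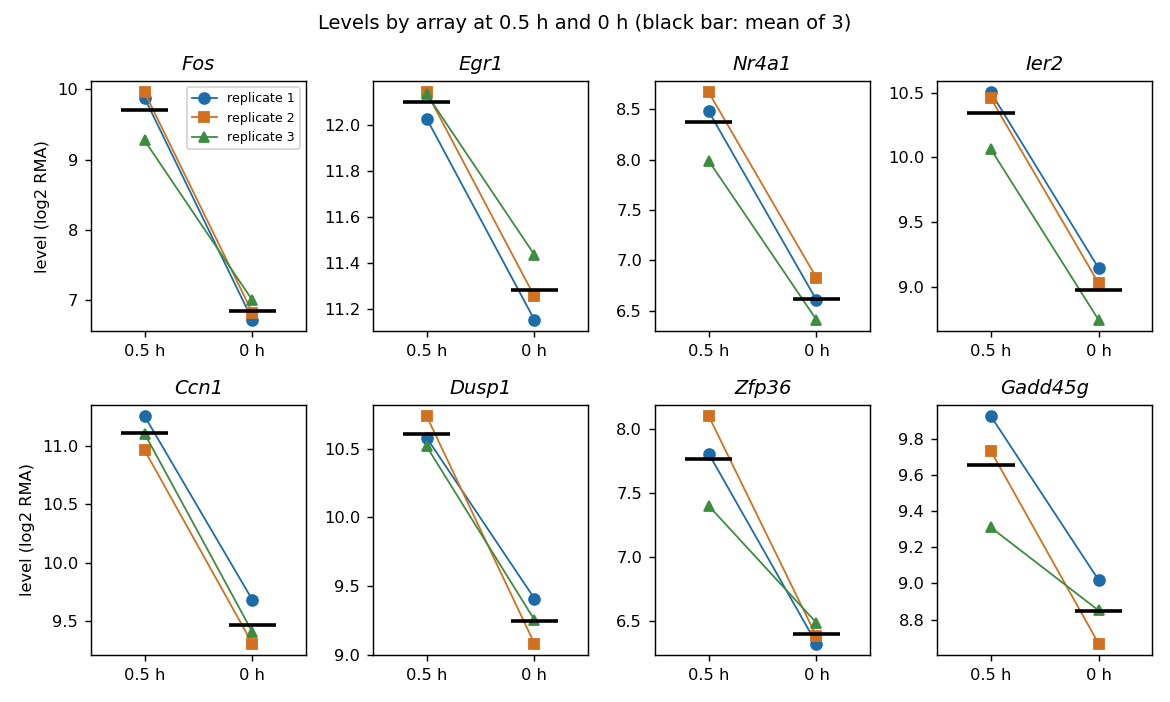
Log2 RMA levels of the 7 called genes and Gadd45g in each array, 0.5 h on the left and 0 h on the right, with lines joining arrays of the same replicate number and black bars at the mean of 3. In every panel the lowest 0.5 h array lies above the highest 0 h array, and Fos shows the widest gap, 9.27 against 6.998.

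Most other immediate early genes did not pass, and counts by list are from the fit over all 48 arrays without the block. The 7 lists of early response genes held 92 measured genes, of which 7 rose and none fell (17 higher and 4 lower at an unadjusted p under 0.05), with a median difference of 0.11 against 0.02 over all genes. With the replicate block on only the 6 arrays 13 of the 92 rose and none fell, against 15 risen and 19 fallen of all 18193 genes. The 13 were the 7 with Ccn2, Ier3, Egr2, Btg2, Dusp5 and Atf3. In 23 of the 92 all 0.5 h arrays lay above all 0 h arrays and in 8 all lay below, against 6.13% and 4.52% of all genes. The lists were chosen with earlier results of these data known, so these counts and medians are a description and not a test.

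Of 13 AP-1 and related factors only Fos was called. Jun was at 10.24 ± 0.11 at 0.5 h and 10.09 ± 0.09 at 0 h (SD, n = 3 each), a difference of 0.15 (SE 0.14). Junb was at 8.35 ± 0.46 at 0.5 h and 7.88 ± 0.41 at 0 h, with overlapping groups, a difference of 0.47 (SE 0.42). Atf3, a stress-induced member, was at 6.08 ± 0.18 at 0.5 h and 5.47 ± 0.08 at 0 h, a difference of 0.61 with separate groups (adjusted p = 1.00, or 0.0481 with the replicate block on only the 6 arrays). Fosb was at 3.12 at 0.5 h and 3.15 at 0 h.

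Of 12 Egr, Nr4a and Ier genes 3 rose, namely Egr1, Nr4a1 and Ier2. Egr2, a relative of Egr1, was at 9.68 ± 0.15 at 0.5 h and 8.91 ± 0.20 at 0 h, a difference of 0.78 (SE 0.22, adjusted p = 0.885, or 0.00599 with the replicate block on only the 6 arrays). Nr4a2, a relative of Nr4a1, was at 6.32 ± 0.32 at 0.5 h and 6.84 ± 0.20 at 0 h, a difference of -0.52 that did not pass (adjusted p = 1.00). Egr3 and Nr4a3 differed by 0.23 and -0.12.

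None of 14 Kruppel-like, Myc and other early factors was called, and their median difference was 0.13. Myc was at 7.28 ± 0.10 at 0.5 h and 7.05 ± 0.07 at 0 h, a difference of 0.23 (SE 0.22). Csrnp1, a nuclear protein, and Arid5a, an RNA-binding protein, had differences of 0.32 and 0.28 with separate groups. Of 17 targets of serum response factor and YAP only Ccn1 rose, and the list's median was -0.003. Actb, cytoskeletal actin, was at 13.95 at 0.5 h and 13.98 at 0 h. Vcl, an adhesion protein, was at 11.22 at 0.5 h and 11.37 at 0 h, a difference of -0.15 that did not pass.

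None of 12 secreted early factors was called. Edn1, the peptide endothelin, was at 5.50, 5.43 and 5.35 at 0.5 h, against 5.03, 5.11 and 5.12 at 0 h. Its groups were separate, but the difference of 0.34 (SE 0.13) did not pass (adjusted p = 1.00). Among 15 MAP kinase phosphatases and Sprouty-type inhibitors only Dusp1 rose. Dusp5 and Dusp10, phosphatases of ERK and of p38 and JNK, differed by 0.62 and 0.28 with separate groups, and with the replicate block on only the 6 arrays Dusp5 passed (adjusted p = 0.0367). Spred2, an inhibitor of the Ras pathway, differed by -0.30, also with separate groups.

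Of 9 mRNA decay and antiproliferative genes only Zfp36 rose. Its relative Zfp36l2 was at 10.07, 10.17 and 10.32 at 0.5 h, against 10.39, 10.37 and 10.50 at 0 h, a difference of -0.23 (SE 0.10), though 0.003 as the mean of its probe sets. Tob1, an antiproliferative protein, was at 8.002, 7.66 and 8.12 at 0.5 h, against 8.28, 8.80 and 8.76 at 0 h. All its 0.5 h arrays lay below all 0 h arrays, but the difference of -0.69 (SE 0.19) was not called (adjusted p = 0.885).

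**Figure D3:**
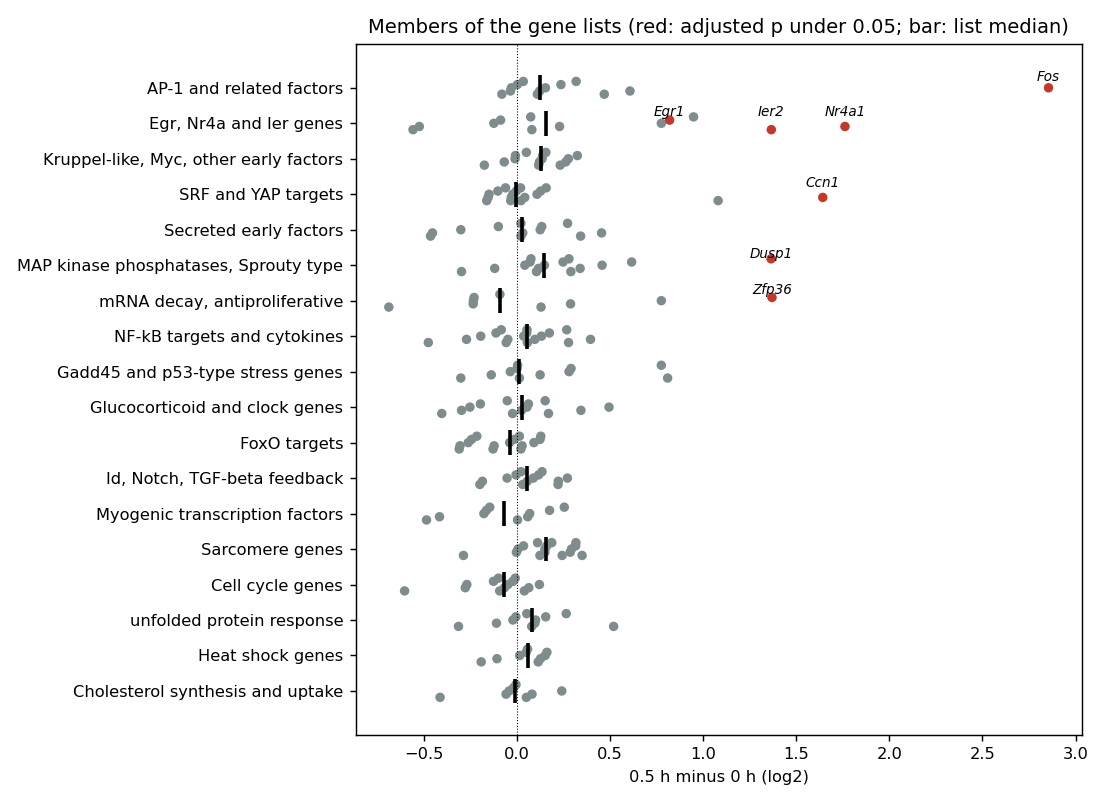
Difference 0.5 h minus 0 h (log2, x axis) of each measured member of 18 gene lists (rows), with the called genes in red and named and a black bar at each list's median. The 7 called genes lie in 5 of the top 7 rows, and every list median lies between -0.09 and 0.16.

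The other lists held no called gene without the replicate block. Of 17 NF-kB targets and cytokines none was called (median difference 0.05), and Cxcl5, a chemokine, had the smallest-valued difference at -0.48. Among 13 glucocorticoid and clock genes Sgk1, a serum- and glucocorticoid-induced kinase, was at 9.35 ± 0.27 at 0.5 h and 8.85 ± 0.30 at 0 h, a difference of 0.49 with separate groups, and Ddit4, an inhibitor of mTORC1 signalling, was at 7.68 ± 0.21 at 0.5 h and 8.08 ± 0.17 at 0 h, a difference of -0.40. Neither passed. Of 15 FoxO targets none was called (median -0.04), with Irs2, an insulin receptor substrate, at -0.31 and Cdkn1b, an inhibitor of cyclin-dependent kinases, at -0.31. Txnip, a FoxO- and glucose-responsive inhibitor of thioredoxin, was at 9.03 ± 0.11 at 0.5 h and 9.29 ± 0.13 at 0 h.

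Muscle regulators showed no call at 0.5 h against 0 h. Of 10 myogenic transcription factors and 16 sarcomere genes none passed, and the list medians were -0.07 and 0.16. Myod1, which commits cells to muscle, was at 10.45, 10.26 and 9.64 at 0.5 h, against 10.44, 10.07 and 9.64 at 0 h, so each 0.5 h array was close to the 0 h array of the same replicate number. Myog, myogenin, the factor of terminal differentiation, was at 11.46, 9.69 and 9.82 at 0.5 h, against 11.42, 9.32 and 9.71 at 0 h. The first replicate was higher than the others in both groups by more than 1.5, a spread far wider than the difference of 0.18 (SE 0.64). The fast myosin light chain gene Mylpf followed the same order, with 11.21, 9.73 and 10.15 at 0.5 h, against 10.999, 8.97 and 10.07 at 0 h. Myf5, a factor of undifferentiated myoblasts, was at 8.11, 7.37 and 8.11 at 0.5 h, against 8.15, 8.42 and 8.47 at 0 h. All its 0.5 h arrays lay below the 0 h arrays, 2 of them by less than 0.05, and the difference of -0.49 did not pass (SE 0.35, adjusted p = 1.00).

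The inhibitors Id1 and Id3, which bind and block myogenic partners, differed by 0.09 (SE 0.34) and 0.03 (SE 0.29), and none of the 13 Id, Notch and TGF-beta feedback genes was called (median 0.06). None of 13 cell cycle genes was called (median -0.07). Ccnd1, cyclin D1, was at 9.54 ± 0.26 at 0.5 h and 9.63 ± 0.14 at 0 h. Mki67, a marker of cycling cells, was at 8.79, 8.74 and 8.68 at 0.5 h, against 9.11, 9.33 and 9.58 at 0 h, with separate groups, and Top2a, a topoisomerase of mitotic cells, differed by -0.28. The difference of Mki67, -0.60 (SE 0.42), was not called (adjusted p = 1.00). None was called of 11 genes induced by unfolded proteins or amino acid shortage, 9 heat shock genes and 8 cholesterol genes, with medians of 0.08, 0.06 and -0.01.

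On the lower side no gene passed, and the gene with the largest drop was Neat1, the noncoding RNA that scaffolds paraspeckles. Neat1 was at 7.39, 7.25 and 7.39 at 0.5 h, against 8.65, 8.84 and 9.35 at 0 h. All 0.5 h arrays lay more than 1 below all 0 h arrays. The difference was -1.61 (SE 0.44, adjusted p = 0.858), and it passed with only the 6 arrays (adjusted p = 0.0219, or 0.000459 with the replicate block). The SD of Neat1 was 0.078 at 0.5 h and 0.36 at 0 h, and 1.06 at 1 h. A second Neat1 probe set, at a level near 4.7 in both groups, differed by -0.07. Tmem186, a mitochondrial membrane protein, was at 4.52, 4.41 and 4.66 at 0.5 h, against 5.08, 5.06 and 5.19 at 0 h. Its groups were separate and the difference was -0.58 (SE 0.12, adjusted p = 0.0852, or 0.0448 with the replicate block on only the 6 arrays). Snhg10, a noncoding host of small nucleolar RNA, was at 6.37, 6.36 and 6.37 at 0.5 h, against 7.21, 6.68 and 6.77 at 0 h, a difference of -0.52 (SE 0.11, adjusted p = 0.0968). The other genes of smallest p on the lower side with separate groups were Ifnz (interferon zeta, -0.50), Zim1 (an imprinted zinc finger gene, -0.45), Otc (a urea cycle enzyme, -0.25), Neil3 (a DNA glycosylase, -0.33), Slc25a27 (a mitochondrial carrier, -0.55) and Hoxc8 (a homeobox factor, -0.62), with adjusted p of 0.858 or more. All of these had mean levels below 6 in both groups, and Otc was lowest, at 2.91 at 0.5 h and 3.16 at 0 h. Of these genes Slc25a27 passed with the replicate block on only the 6 arrays (adjusted p = 0.0481). That limma fit called 19 fallen genes in all. Among them were also Cenpe (-0.996, adjusted p = 0.0471), Ccdc88a (-0.96, 0.0466), Creb5 (-0.81, 0.025) and Mtm1 (-0.78, 0.00587). Mtm1 was called with only the 6 arrays without the block as well. On the higher side the gene of smallest p outside the early lists was Ms4a18, a membrane protein, at 3.40 at 0.5 h and 3.04 at 0 h (adjusted p = 0.0968).

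The highest means of the 7 genes lay at 0.5 h or 1 h. Over the 14 times without cycloheximide, Fos, Dusp1, Zfp36 and Ier2 had their highest mean at 0.5 h, and Ccn1, Egr1 and Nr4a1 at 1 h. Mean levels of Fos were 6.08 (-24 h), 6.85 (0 h), 9.70 (0.5 h), 8.65 (1 h) and 6.63 (1.5 h), the last of these below its 0 h mean. Zfp36, Ier2 and Egr1 were also at or below their 0 h means at 1.5 h, Dusp1 at 2 h, Nr4a1 at 9 h and Ccn1 at 24 h. The 5 genes whose 14 group means correlated most with those of Fos, among 3653 genes with a range of at least 1, were Ier2 (r = 0.925), Dusp1 (0.852), Zfp36 (0.823), Ccn1 (0.822) and Egr1 (0.808). All 5 are among the 7 called genes, and the 14 means share the 0.5 h arrays that gave those calls.

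**Figure D4:**
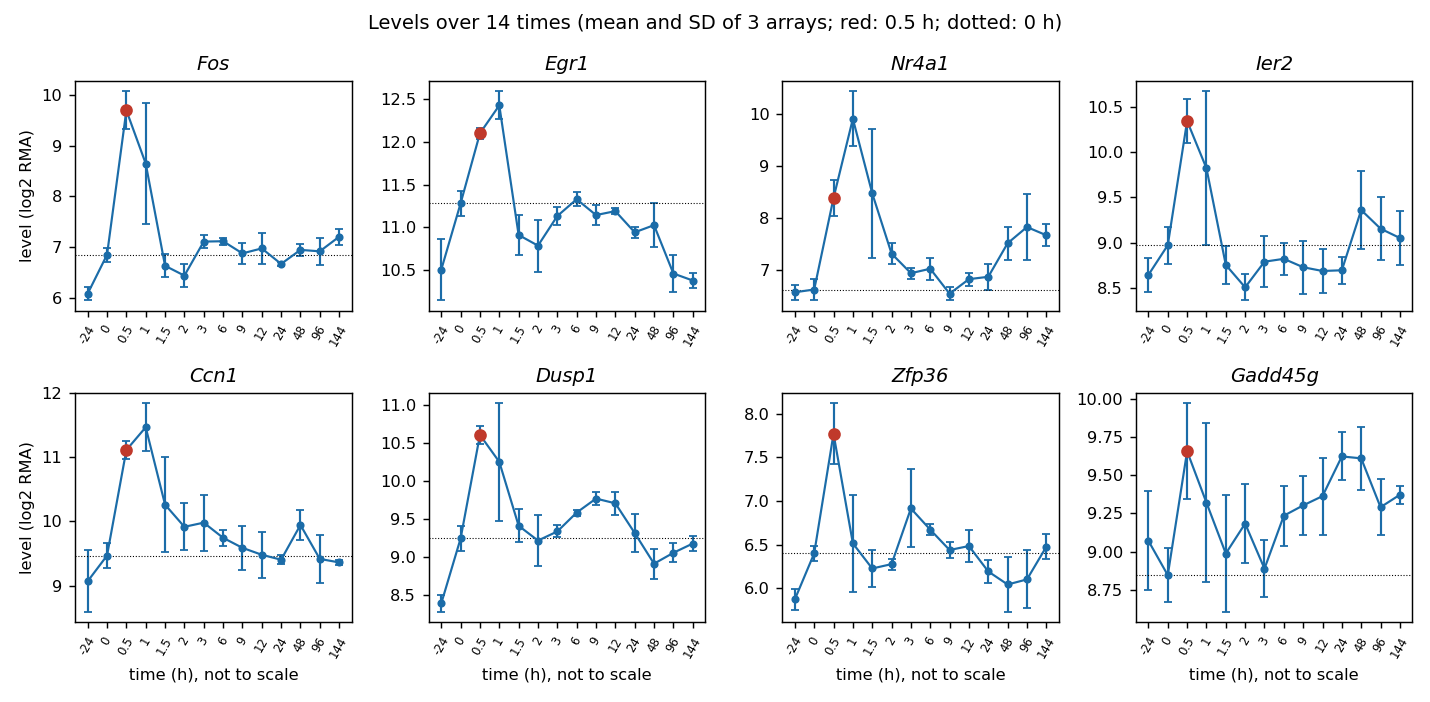
Mean and SD of 3 arrays (log2 RMA) for the 7 called genes and Gadd45g at 14 times from -24 h to 144 h, evenly spaced and not to scale, with 0.5 h in red and the 0 h mean dotted. Fos, Dusp1, Zfp36 and Ier2 peak at 0.5 h, and Ccn1, Egr1 and Nr4a1 at 1 h.

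The 1 h group was compared with the 0.5 h group to see which genes moved in the next 0.5 h. At 1 h, 7 genes had risen and 5 had fallen relative to 0.5 h (0.0385% and 0.0275%, 0.066% in all). With the replicate block these were 15 and 11 (0.0824% and 0.0605%, 0.143% in all). Id1, at -0.99 (limma, adjusted p = 0.0141), and Snhg10, at 0.50 (0.0452), were among the genes it added. With arrays centred on housekeeping genes, which moved the median difference of all genes to 0.14, 14 genes had risen and 4 had fallen. With only the 6 arrays no gene was called by limma (195 higher and 227 lower at an unadjusted p under 0.05). Of the 7 genes risen at 0.5 h, Zfp36 fell: it was at 7.15, 6.11 and 6.28 at 1 h, against 7.81, 8.10 and 7.40 at 0.5 h, and the lower level held in every array. The difference was -1.26 (SE 0.22, adjusted p = 0.00759), with an adjusted p over the threshold without replicate 1 or 2 of 0.5 h or replicate 2 or 3 of 1 h (up to 0.149).

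Nr4a1 was at 10.25, 10.16 and 9.30 at 1 h, against 8.48, 8.67 and 7.99 at 0.5 h. Its groups did not overlap, and the difference of 1.52 had an adjusted p of 0.0702, or 0.0062 with the replicate block. Fos was at 9.99, 7.67 and 8.29 at 1 h, against 9.88, 9.96 and 9.27 at 0.5 h. The first 1 h array was as high as those of 0.5 h and the others were lower, and the difference of -1.05 was not called (SE 0.29, adjusted p = 0.419). Without that first 1 h array it was -1.72 and passed (adjusted p = 9.56e-06). Without any other single array of the 0.5 h and 1 h groups it did not pass (limma, adjusted p 0.34 or more). It was -0.56 without replicate 2 of 1 h and -0.87 without replicate 3. Dusp1 showed the same order at 1 h, with 11.07, 9.52 and 10.18, and Ier2 had 10.75, 9.10 and 9.61, against narrow ranges at 0.5 h. Neither differed by the test. Ccn2 averaged 12.39 at 1 h and 11.30 at 0.5 h, a difference of 1.09 with an adjusted p of 0.0655, or 0.0313 with the block.

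Among the other genes called, Edn1 was at 6.61 ± 0.34 at 1 h and 5.43 ± 0.07 at 0.5 h, a rise of 1.18 (SE 0.13, adjusted p = 2.18e-06) that was kept without each array in turn. Ankrd1, a muscle ankyrin repeat protein and YAP target, rose by 1.06, Ptger4, a prostaglandin receptor, by 0.88, Noct, a circadian phosphatase, by 0.87 and Tmem186 by 0.67 (adjusted p 0.00508 to 0.0166). Tmem186 was thus back at 5.20 at 1 h, against 4.53 at 0.5 h. Ddit4 was at 6.58 ± 0.35 at 1 h and 7.68 ± 0.21 at 0.5 h, a fall by 1.10 (adjusted p = 0.00978). The other genes of smallest p that fell were 9930012K11Rik, by 1.22, the noncoding RNA Lncppara, by 1.00, and the zinc finger gene Zfp217, by 0.80. Without replicate 1 of 0.5 h, or without replicate 3 of 1 h, Edn1 was the 1 gene called, and without replicate 2 of either group 3 genes were.

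The -24 h group, in the same growth medium a day earlier, gave another reference. All 7 genes were higher at 0.5 h than at -24 h as well, by 3.62 for Fos, 2.22 for Dusp1, 2.04 for Ccn1, 1.90 for Zfp36, 1.82 for Nr4a1, 1.69 for Ier2 and 1.60 for Egr1 (adjusted p at most 0.000131). This contrast shares the 0.5 h arrays and also takes in the day in growth medium before the switch. In it 1633 genes were higher (8.98%) and 1360 lower (7.48%), 16.5% in all. With arrays centred on housekeeping genes, where the median gene differed by 0.14, these were 2591 and 869, and with arrays centred on the median gene 1353 and 1674. The 7 genes passed under every setting run. Some genes of muscle and of the cell cycle also differed between 0.5 h and -24 h. Myog was higher by 4.69, Mylpf by 4.21 and Myod1 by 0.98, and Mki67 differed by -1.69 (limma, adjusted p at most 0.011). Myf5 differed by -0.12 and did not pass. At 0 h, before the switch, Myog was already at a mean of 10.15, against 10.33 at 0.5 h.

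Every probe set was also tested on its own. Of 45037 probe sets 25 rose and 1 fell (0.0555% and 0.00222%), and with the replicate block 34 rose and 10 fell, among them the probe sets of Ccn2 (adjusted p = 0.0463), Ier3 (0.0483) and Ms4a18 (0.0408) on the higher side and Snhg10 (0.0418) and Tmem186 (0.0448) on the lower side. Of the 25, 17 carried 1 gene symbol, for 13 genes, and 8 had no symbol listed. The 13 genes were the 7 above and 6 others, Itprip, Acta2, Gcnt2, Nfkbiz, Btg2 and Calu, whose gene-level value came from a different probe set that was not called.

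Ccn1 shows how probe sets of a gene can differ. All 4 of its probe sets rose at 0.5 h. The probe set 1457823_at was at 9.23, 8.36 and 8.48 at 0.5 h, against 6.203, 5.94 and 6.81 at 0 h, a rise of 2.37 (SE 0.22, adjusted p = 3.12e-08). The arrays of the groups were far apart. At 1 h it averaged 6.21, a difference from 0.5 h of -2.48 (adjusted p = 8.29e-09), and 1442340_x_at did the same, with means of 6.23 at 1 h, 8.69 at 0.5 h and 6.17 in the 0 h arrays. The other probe sets of Ccn1 stayed high, with 11.46 and 10.57 at 1 h, against 11.11 and 10.18 at 0.5 h.

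Itprip, a protein that binds the inositol trisphosphate receptor, had a probe set, 1431894_at, at 5.47, 5.23 and 4.83 at 0.5 h, against 3.99, 4.19 and 4.09 at 0 h. It rose by 1.09 (SE 0.15, adjusted p = 6.47e-05) and was back at 3.95 at 1 h, while the second probe set of Itprip was at 6.99 at 0.5 h and 7.06 at 0 h, and at 7.56 at 1 h. Nfkbiz, an atypical inhibitor of NF-kB, had 1457404_at at 5.61 ± 0.15 at 0.5 h and 4.69 ± 0.16 at 0 h (adjusted p = 0.0296), and 4.46 at 1 h. Its other probe sets differed by 0.27 and 0.35 and were not called. Acta2, smooth muscle actin, had 1456658_at at 5.16 ± 0.14 at 0.5 h and 4.05 ± 0.18 at 0 h (adjusted p = 0.000661), while 1416454_s_at was at 13.48 at 0.5 h and 13.46 at 0 h.

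Gcnt2, an enzyme that branches glycans, had 8 probe sets, and 2 of them rose, by 0.94 and 0.90 (adjusted p = 0.00997 each). Btg2, an antiproliferative p53 target, had 1448272_at at 8.57, 8.38 and 8.01 at 0.5 h, against 7.58, 7.47 and 7.48 at 0 h, a rise of 0.81 (adjusted p = 0.0479). Its other probe set, used for the gene, differed by a like 0.78, but its arrays overlapped, with 9.95, 8.93 and 8.83 at 0.5 h, against 9.01, 8.20 and 8.18 at 0 h. It passed with the replicate block on only the 6 arrays (adjusted p = 0.0105). Calu, a calcium-binding protein of the secretory pathway, had 1441477_at up by 0.64 (adjusted p = 0.0493) and its main probe set at 11.344 at 0.5 h and 11.503 at 0 h. The single probe set that fell, 1440491_at of the glutamate transporter gene Slc1a3, was at 3.41 ± 0.04 at 0.5 h and 3.89 ± 0.09 at 0 h (adjusted p = 0.0165). Of the 25 risen probe sets 12 were lower at 1 h than at 0.5 h by the test and none was higher, a comparison that shares the 0.5 h arrays by which they were chosen. Without each array in turn 12 to 18 probe sets were called.

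**Figure D5:**
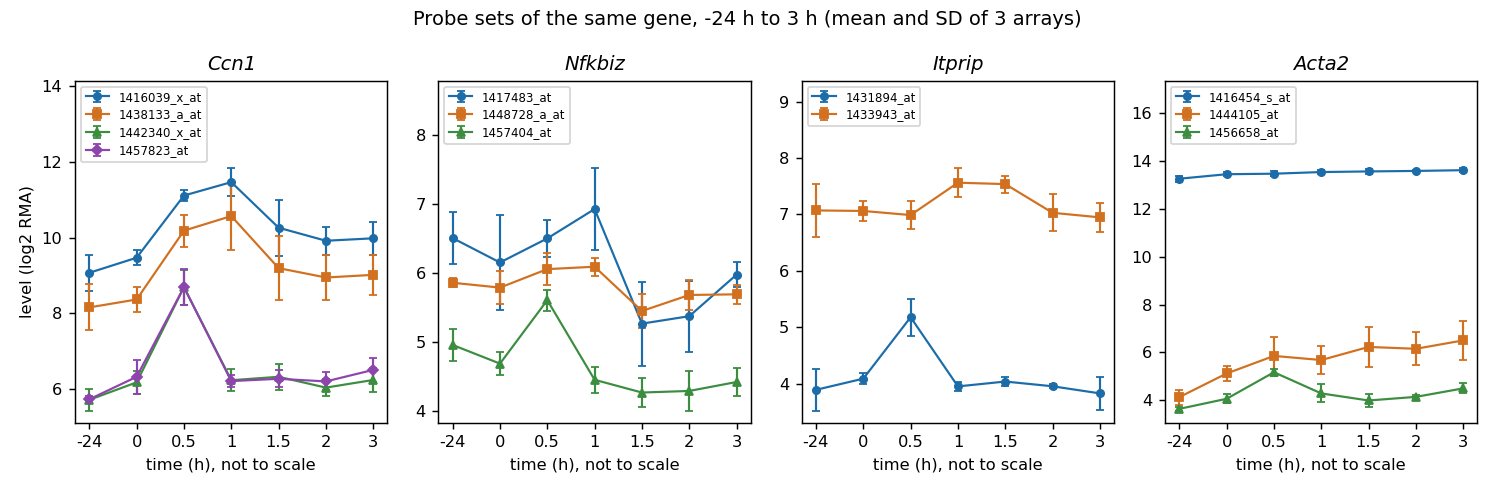
Mean and SD of 3 arrays (log2 RMA) for each probe set of Ccn1, Nfkbiz, Itprip and Acta2 at 7 times from -24 h to 3 h, evenly spaced. Of the Ccn1 probe sets 1457823_at and 1442340_x_at are high at 0.5 h only, at 8.69, while 1416039_x_at and 1438133_a_at are still high at 1 h, at 11.46 and 10.57.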

How the data were processed

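Total RNA (5 µg) was labelled and hybridised to Affymetrix MOE430v2 arrays. The deposited values are log2 expression made with RMA, per the submitters' processing notes, whose version and settings are not given in the sources used here. Of 45101 probe sets, 64 were controls, 34945 had exactly 1 gene symbol in the platform annotation, 932 several and 9160 none. Each of 18193 genes was represented by its probe set of highest mean over the 48 arrays. Differences were tested with limma 3.58.1 (R 4.3.3), lmFit and eBayes, with 1 coefficient per group over all 48 arrays (32 residual degrees of freedom) and Benjamini-Hochberg adjustment over all genes, called at an adjusted p under 0.05. Fits were tested on simulated data with independent noise for each array. The simulation held no deviation shared by arrays of the same replicate number, so it could not test the fits for that. The number of arrays limits the precision, with a median SE of 0.13 for a difference.

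Arrays with the same replicate number deviated together at 0.5 h and 0 h (correlations 0.406 to 0.609), and the submitters' design text ties the triplicates to successive passages. A fit with the replicate number as a block is therefore given for the counts and for part of the named genes. Gene members, lists and comparisons were chosen with earlier results of these data known. Genes are named if called, or if among the 10 of smallest p per direction with separate groups (clone-type names and small RNAs left out). They are also named if in the 7 early lists with an unadjusted p under 0.05, or if in a fixed set of 12 regulators. Further rules were to be among the 5 of smallest p per direction at 1 h, or among the 5 most like Fos. Of the 2 genes of smallest p of each other list only a part are named. A few more (Fosb, Egr3, Nr4a3, Actb, Vcl, Cenpe, Ccdc88a, Creb5, Mtm1 and the genes of called probe sets) were chosen after their values were seen. Alternatives covered the arrays fitted, the variance model, scaling, the probe set per gene, a filter at a level of 6, the reference and leaving out arrays.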

Additional observations from a re-analysis of the deposited data

Results flagged for a closer look

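Of the probe sets that rose at 0.5 h, 8 have no gene symbol listed and enter no result by gene. Each was above its level in the 0 h arrays in all 3 arrays of 0.5 h. The log2 differences between 0.5 h and 0 h were 2.60 for 1442710_at, 1.51 for 1437917_at, 1.17 for 1442336_at, 1.05 for 1439535_at, 1.04 for 1457184_at, 1.04 for 1456717_at, 0.74 for 1430630_at and 0.54 for 1440103_at. The probe set 1442710_at was at 6.98, 5.80 and 6.47 at 0.5 h, against 3.28, 3.81 and 4.35 at 0 h, and averaged 4.196 at 1 h. The probe set 1437917_at was at 6.42, 6.24 and 6.26 at 0.5 h, against 4.37, 4.61 and 5.39 at 0 h, and averaged 4.24 at 1 h. Their genes are not named here.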

How the results depend on the processing

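The count of 7 genes at 0.5 h against 0 h became 34 (15 risen, 19 fallen) with the replicate block on only the 6 arrays, 14 (11 and 3) with array weights, 847 (523 and 324) with 0 h and -24 h together as reference, and 26 with every probe set tested, and all 7 genes were among those called in the first 3 of these. It ranged from 3 to 6 on leaving out 1 array, and from 7 to 9 with the block as well. The settings not printed moved it to 6 to 10. Fos and Dusp1 were called in every setting run. Ccn1 was lost only without probe sets ending in _s_at or _x_at. Egr1 was lost with only the 6 arrays, and with either of 2 scalings (housekeeping centring or quantile normalization again). Separately, Egr1 was lost on leaving out each of 5 of the 6 arrays singly. With the block it was lost without replicate 2 of 0.5 h or replicate 1 of 0 h. At 1 h against 0.5 h the 12 genes became 26 with the block, 0 with only the 6 arrays, with or without the block (227 higher and 373 lower at an unadjusted p under 0.05 with it), 19 with array weights, 18 with housekeeping centring and 1 to 12 on leaving out 1 array. At 0.5 h against -24 h the 2993 genes ranged from 1864 (without the first -24 h array) to 2700. The 26 probe sets became 44 with the block, 16 with only the 6 arrays, 113 with both, and 12 to 18 on leaving out 1 array. Uncalled differences changed sign. On leaving out 1 array Myod1 ranged from -0.14 to 0.31, Myog from -0.39 to 0.81, Id1 from -0.13 to 0.33, Id3 from -0.10 to 0.22 and Ccnd1 from -0.21 to 0.0458, and Dusp1 at 1 h against 0.5 h from -0.76 to 0.0115. With the block as well, Myog ranged from -0.0531 to 0.48, with -0.0467 without replicate 2 of 0 h, Id1 from -0.0142 to 0.19, and Id3 from -0.0686 to 0.12, with -0.0615 without replicate 1 of 0 h. Id3 was -0.0106 with array weights and Zfp36l2 0.00283 as a mean of probe sets. With the joint reference Id1 was -0.0235, Noct -0.10 and Txnip 0.68 (limma, adjusted p = 0.017). The cause of these changes was not tested. With the block over all 48 arrays the 7 genes stayed called.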
